A study of Mus musculus with 20 samples.

Results

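The genes described here are the nuclear-encoded subunits of oxidative phosphorylation, chosen by name: genes whose symbol starts with Nduf and a subunit letter and number, with Uqcr, with Cox4 to Cox8 or with Atp5, and the 4 Sdh subunits, leaving out 6 entries whose names mark them as pseudogenes (no group mean of theirs above 4.26). The rule takes 88 of the 39179 genes in the table, with 40 in complex I, 4 in complex II, 8 in complex III, 19 in complex IV and 17 in complex V. RNA was sequenced from 20 mouse samples on a C57BL/6 background in 5 groups. The 3 dKO samples were CD4SP thymocytes (CD4+TCRb+CD8- cells) deficient for Id2 and Id3, from mice aged 8 wk that carried IL7R-Cre and floxed alleles of both genes (Id2 fl/fl and Id3 fl/fl), in which Cre acts from the common lymphoid progenitor onward, so that other lymphoid cells of these mice also lose both genes. The 6 lymphomas arose in Id2- and Id3-deficient mice, and were sorted as CD3+TCRb+ cells from lymph node in 4 cases, thymus in 1 and spleen in 1, with CD4+ cells in 4 and CD8+ cells in 2. The labels give neither the age nor the Cre line of each, and the study describes the lymphomas in mice of several Cre lines that were many months old, so that age and lymphoma cannot be told apart against the 8-wk CD4SP groups. The 3 TFH samples were CD44highCXCR5+ CD4+TCRb+ cells from the spleen of wild-type mice after sheep red blood cell immunization. The 3 samples labelled Id3 KO (Id3-/--labelled cells) and the 5 control samples were CD4SP thymocytes of mice of the same age as the dKO mice, the controls labelled wild type, while the study's text gives them as Id3+/- or littermate mice.

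Oxidative phosphorylation is carried out in the inner mitochondrial membrane. Complexes I and II pass electrons from NADH and succinate to ubiquinone, complex III passes them to cytochrome c and complex IV to oxygen, and complex V, the ATP synthase, uses the resulting proton gradient to make ATP. Each complex except complex II mixes subunits encoded in the nucleus with subunits encoded in mitochondrial DNA, and in T cells the amount of this machinery is known to grow as resting cells start to divide.

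The deposited table gives 1 mean of DESeq-normalised RSEM read counts per gene and group, and no value per library. No spread between replicates could therefore be computed, no difference given here was tested, and the depth of the libraries is unknown. Every ratio is log2((group mean + 1)/(mean of the group it is set against + 1)) and is a description of these means, which for low genes understates the difference. A gene was kept where at least 1 of the 5 means reached 10, which left 15536 genes and 78 of the 88 members. The summed columns differed by 0.09 in dKO CD4SP cells, 0.20 in lymphomas, -0.01 in TFH cells and 0.05 in Id3-/--labelled cells from control on the log2 scale, and setting all sums equal would take that amount off each ratio. Id2, deleted in both deficient groups, averaged 6.82 in dKO CD4SP cells, 30.5 in lymphomas, 1628 in TFH cells, 1764 in Id3-/--labelled cells and 2293 in control CD4SP cells. Id3 averaged 879.7 in dKO CD4SP cells, 857 in lymphomas, 1777 in TFH cells, 2649.7 in Id3-/--labelled cells and 1991 in control CD4SP cells, so the label of the Id3-/--labelled libraries was not borne out by a lower Id3 mean. Which exons the Id3-null allele lacks was not examined. The 4 comparisons with control share the same 5 control libraries, and since these are mixtures of cells, fewer cells of a type and less RNA per cell cannot be told apart.

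Promoters of a few members are shown first, since respiratory chain genes are known targets of NRF1 and of ETS factors such as GABP, while Id proteins hold E proteins away from E-box sites. RefSeq start sites (GRCm38.p6) matched 64 of the 78 kept members. The printed sequences are the 250 bases before the start, 5′ to 3′ on the gene's strand, of the 3 genes with the highest dKO ratios (Ndufa4, Cox8a and Uqcr11), of Atp5e, whose dKO and lymphoma ratios had opposite signs, and of Cox6a1, which holds both an NRF1 and an ETS match. Capitals mark matches, on either strand, to the NRF1 core GCGCATGC, to the ETS core CCGGAAG, or to an E-box, which was searched as CAGGTG, as the palindrome CAGCTG and as the palindrome CACGTG. Copies that overlap on both strands are marked as 1 run.
Ndufa4 (chr6:11907451-11907700, minus strand): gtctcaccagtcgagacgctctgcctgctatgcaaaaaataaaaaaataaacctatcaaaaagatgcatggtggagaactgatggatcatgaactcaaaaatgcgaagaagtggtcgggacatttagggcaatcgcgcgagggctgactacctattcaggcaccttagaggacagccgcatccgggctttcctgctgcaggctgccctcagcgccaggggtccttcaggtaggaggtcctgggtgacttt
Cox8a (chr19:7217617-7217866, minus strand): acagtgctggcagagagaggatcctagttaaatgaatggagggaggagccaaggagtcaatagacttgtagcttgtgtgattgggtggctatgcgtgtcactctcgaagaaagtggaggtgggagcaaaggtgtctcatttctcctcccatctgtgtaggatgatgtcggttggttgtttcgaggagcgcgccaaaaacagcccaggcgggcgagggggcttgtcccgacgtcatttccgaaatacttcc
Uqcr11 (chr10:80406822-80407071, minus strand): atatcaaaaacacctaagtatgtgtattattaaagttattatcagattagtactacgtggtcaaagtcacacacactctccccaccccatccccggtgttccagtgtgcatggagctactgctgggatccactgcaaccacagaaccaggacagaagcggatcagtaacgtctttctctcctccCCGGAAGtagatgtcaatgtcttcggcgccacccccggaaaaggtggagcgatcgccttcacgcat
Atp5e (chr2:174464102-174464351, minus strand): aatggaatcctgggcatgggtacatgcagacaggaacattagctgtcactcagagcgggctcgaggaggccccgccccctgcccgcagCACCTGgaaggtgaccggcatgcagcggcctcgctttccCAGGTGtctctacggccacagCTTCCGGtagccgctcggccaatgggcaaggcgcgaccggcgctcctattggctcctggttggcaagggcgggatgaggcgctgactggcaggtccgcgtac
Cox6a1 (chr5:115348959-115349208, minus strand): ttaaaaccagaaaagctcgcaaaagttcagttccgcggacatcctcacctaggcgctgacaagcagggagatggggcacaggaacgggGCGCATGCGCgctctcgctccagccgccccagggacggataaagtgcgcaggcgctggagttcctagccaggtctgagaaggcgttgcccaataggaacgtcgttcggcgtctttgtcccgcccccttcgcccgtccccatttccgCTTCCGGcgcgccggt
The windows of Ndufa4 and Cox8a held none of these letters, that of Uqcr11 held CCGGAAG once, and that of Atp5e held CAGGTG on both strands and the reverse complement of CCGGAAG.
Over the 64 member windows, GC content had a median of 56.2%, against 59.6% over those of kept protein-coding genes. The NRF1 letters were in 10.9% of member windows, against 4.39% of the windows of 10421 kept protein-coding genes. The ETS letters were in 17.2% of member windows and 13.9% of all. CAGGTG was in 18.8% of member windows and 15.9% of all, CAGCTG in 7.81% and 11.6%, and CACGTG in 9.38% and 8.25%. The 7 members with the NRF1 letters were Atp5k, Atp5l, Cox6a1, Ndufa11, Ndufa6, Ndufa8 and Sdhb, and these counts are a description with no statement about binding.

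Most subunits had higher means in dKO CD4SP cells than in control CD4SP cells, by a modest amount. The median log2 ratio over the 78 kept members was 0.37, against 0.02 over all kept genes, and 70 of 78 members lay above 0, against 51.4% of kept genes. Short transcripts in general had higher dKO ratios, and relative to coding genes of like mRNA length the members' median was 0.038, with 1 member past 1.5-fold higher. Past 1.2-fold, 51 members were higher and 2 lower (65.4% and 2.56%), where 36.8% and 32.9% of all kept genes were. Past 1.5-fold, 13 members were higher and 2 lower, shares of 16.7% and 2.56% beside a background of 23.6% and 19%. The members' share past 1.5-fold thus lay under the background in both directions, while their share past 1.2-fold higher lay above it. The limit of 1.2-fold was added after seeing the data. Summed over the 78 members the means made up 0.97% of all normalised counts in dKO CD4SP cells, 0.997% in lymphomas, 0.765% in TFH cells, 0.79% in Id3-/--labelled cells and 0.823% in control CD4SP cells.

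Lymphomas had a median of like size and a wider spread. Their median log2 ratio against control was 0.40, against 0.02 over all kept genes. Of the 78 members 62 lay above 0, against 50.9% of kept genes. Past 1.2-fold, 48 members were higher and 11 lower, where the background was 39.6% and 37.7%. Past 1.5-fold, 18 were higher and 5 lower (23.1% and 6.41%), beside 28.2% and 26.5% of all kept genes. With the column sums set equal the lymphoma median was 0.20 and 4 members were past 1.5-fold higher, so the count of members in lymphomas depended on the scaling. In dKO the same scaling gave 6. The quartiles of the members were 0.07 and 0.58 in this comparison, against 0.20 and 0.52 for dKO against control.

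TFH cells and Id3-/--labelled cells differed less from control CD4SP cells, with most members slightly lower. In TFH cells 63 of 78 members lay below 0, against 51.9% of kept genes, and in Id3-/--labelled cells 56 of 78, against 51.2%. In TFH cells the median was -0.15 (-0.02 over all kept genes), with 3 members higher and 20 lower past 1.2-fold beside backgrounds of 30.5% and 31.9%, and 2 higher and 3 lower past 1.5-fold beside 18.7% and 17.7%. In Id3-/--labelled cells the median was -0.07 (-0.01 over all), with 0 higher and 9 lower past 1.2-fold beside 19.9% and 22%, and 0 higher and 2 lower past 1.5-fold beside 9.94% and 10.4%. Lymphomas set against dKO CD4SP cells gave a median of -0.04 (0.03 over all), with 24 higher and 24 lower past 1.2-fold beside 35.2% and 33.7%, and 6 higher and 12 lower past 1.5-fold beside 20.1% and 22.3%. Differences past 2-fold were rare among the members. They were 2 higher and 1 lower in dKO against control (background 14.1% and 10.1%), 1 and 2 in lymphomas against control (18.2% and 17.2%), and 0 and 2 in TFH cells (11.8% and 9.8%). They were 0 and 1 in Id3-/--labelled cells (5.57% and 4.43%) and 0 and 2 in lymphomas against dKO (11.1% and 14.4%). Cox4i2, kept only through its control mean, is counted as lower past 1.5-fold and past 2-fold in every comparison with control. It was the only member lower past 2-fold in dKO and in Id3-/--labelled cells, and 1 of the 2 in lymphomas and in TFH cells. For this gene the direction was set by the filter.

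**Figure D1:**
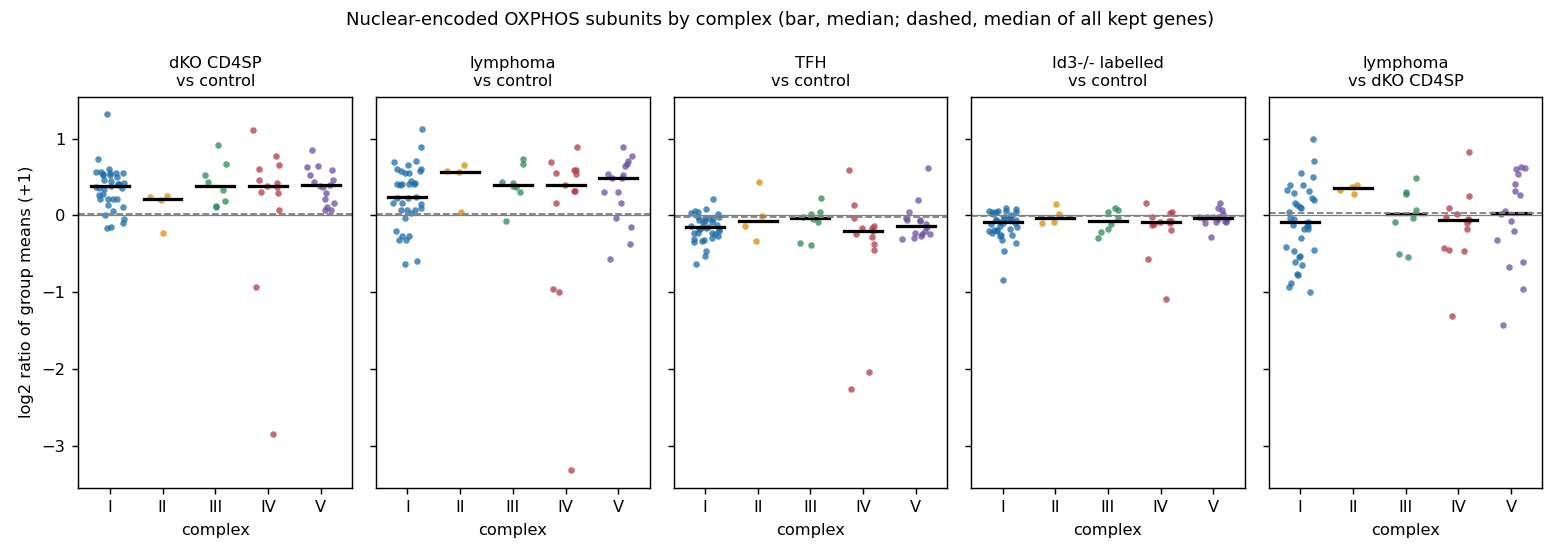
Log2 ratio of group means (vertical axis) of the 78 kept subunit genes, by complex (horizontal axis), in 5 comparisons; each point is a gene, black bars are the medians of a complex and the dashed line is the median of all kept genes. In dKO CD4SP cells against control all 5 medians lie between 0.22 and 0.39, and the lone low points of complex IV there are Cox4i2 (-2.85) and Cox6b2 (-0.93).

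Complex I, the NADH dehydrogenase, was the largest group, with 37 of its 40 members kept. Their means summed to 38937 in dKO CD4SP cells, 38562 in lymphomas, 27585 in TFH cells, 28275 in Id3-/--labelled cells and 29919.5 in control CD4SP cells. The sum was thus 1.30 times the control sum in dKO and 1.29 times in lymphomas. Grouped by name, these sums include Ndufa4, now assigned to complex IV, whose mean was 2927 in dKO and 1177 in control CD4SP cells. Past 1.2-fold against control, 25 members were higher and 0 lower in dKO, and 18 higher and 6 lower in lymphomas, beside backgrounds of 36.8% and 32.9% in dKO and 39.6% and 37.7% in lymphomas.

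The 7 core subunits, which carry the flavin, the iron-sulfur clusters and the ubiquinone site, were set against the other 30 kept genes of the complex I names, which include the pseudogene Ndufb4c and Ndufa4. The core median was 0.21 in dKO and 0.45 in lymphomas, while that of the other 30 was 0.41 in dKO and 0.19 in lymphomas, each against control. The median mRNA length was 1623 bases for the core and 718 for the other 30, and the part of length in this contrast was not tested. Ndufs1, the largest iron-sulfur subunit, averaged 857 in dKO CD4SP cells, 1258 in lymphomas, 1005 in TFH cells, 938 in Id3-/--labelled cells and 951 in control CD4SP cells, which was -0.15 in dKO and 0.40 in lymphomas against control. Ndufs1 was thus lowest in dKO and highest in lymphomas among the 5 groups. Ndufs3, a core subunit of the matrix arm, averaged 1062 in dKO CD4SP cells, 1403 in lymphomas, 957 in TFH cells, 929 in Id3-/--labelled cells and 920.3 in control CD4SP cells, with ratios of 0.21 in dKO and 0.61 in lymphomas. Ndufv1, which binds NADH and the flavin, averaged 1224 in dKO CD4SP cells, 1609 in lymphomas, 1061 in TFH cells, 1220.1 in Id3-/--labelled cells and 1175 in control CD4SP cells, with ratios of 0.06 in dKO and 0.45 in lymphomas. Ndufv2, its iron-sulfur partner, averaged 1433 in dKO CD4SP cells, 1669 in lymphomas, 1027 in TFH cells, 1049 in Id3-/--labelled cells and 1119.5 in control CD4SP cells, with ratios of 0.36 in dKO and 0.58 in lymphomas. All 3 were thus highest in lymphomas. Ndufs7, an iron-sulfur subunit near the ubiquinone site, averaged 1143 in dKO CD4SP cells, 1010.4 in lymphomas, 969.7 in TFH cells, 1057 in Id3-/--labelled cells and 990.2 in control CD4SP cells, with ratios of 0.21 in dKO and 0.03 in lymphomas. Ndufs8, another of these, averaged 1075 in dKO CD4SP cells, 951 in lymphomas, 936 in TFH cells, 791 in Id3-/--labelled cells and 807 in control CD4SP cells, with ratios of 0.41 in dKO and 0.24 in lymphomas; these 2 core genes had the smallest lymphoma ratios of the 7.

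Among the subunits around the core, Ndufa4 had the highest dKO ratio of all members. It was first described as a complex I subunit and is now assigned to complex IV. Its means were 2927 in dKO CD4SP cells, 1727 in lymphomas, 1056 in TFH cells, 1103 in Id3-/--labelled cells and 1177 in control CD4SP cells, a log2 ratio of 1.31 in dKO and 0.55 in lymphomas against control. Its level in dKO was 2.49 times that of control, with ratios of -0.16 in TFH cells and -0.09 in Id3-/--labelled cells. Ndufs6, a zinc-binding subunit needed late in assembly, averaged 970.3 in dKO CD4SP cells, 506 in lymphomas, 497 in TFH cells, 538 in Id3-/--labelled cells and 581 in control CD4SP cells, higher in dKO (0.74) and slightly lower in lymphomas (-0.20). Ndufb8 (0.60), Ndufa6 (0.56) and Ndufc2 (0.56), accessory subunits of the membrane arm or its junction with the matrix arm, were also higher in dKO. The other 12 kept accessory genes (Ndufa7, Ndufa8, Ndufa9, Ndufa11, Ndufa13, Ndufb2, Ndufb3, Ndufb5, Ndufb6, Ndufb7, Ndufb11 and Ndufs4) lay between -0.05 for Ndufs4 and 0.54 for Ndufb7 in dKO, and between -0.32 for Ndufb2 and 0.55 for Ndufa8 in lymphomas. Ndufa13, also known as GRIM-19, was among those lower in lymphomas than in dKO (-0.61).

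In lymphomas other accessory subunits stood out. Ndufb9, at the far end of the membrane arm, averaged 1017 in dKO CD4SP cells, 1658 in lymphomas, 747 in TFH cells, 685 in Id3-/--labelled cells and 758 in control CD4SP cells, the highest lymphoma ratio of any member (1.13). Ndufa10, a kinase-fold subunit of the membrane arm, averaged 1277 in dKO CD4SP cells, 2545 in lymphomas, 1140.0 in TFH cells, 1451 in Id3-/--labelled cells and 1372 in control CD4SP cells. It was the highest member in lymphomas against dKO (0.99) and slightly below control in dKO (-0.10). Ndufb10 (0.71), Ndufv3 (0.70), Ndufa1 (0.65) and Ndufa12 (0.61) were higher in lymphomas as well. At the other end, Ndufa2 averaged 896 in dKO CD4SP cells, 523 in lymphomas, 765 in TFH cells, 674 in Id3-/--labelled cells and 814 in control CD4SP cells. Ndufa3, a membrane subunit, averaged 935 in dKO CD4SP cells, 469 in lymphomas, 598 in TFH cells, 590.4 in Id3-/--labelled cells and 706 in control CD4SP cells. Both were lowest in lymphomas, with ratios of -0.64 and -0.59 against control, while both were above control in dKO (0.14 and 0.40).

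**Figure D2:**
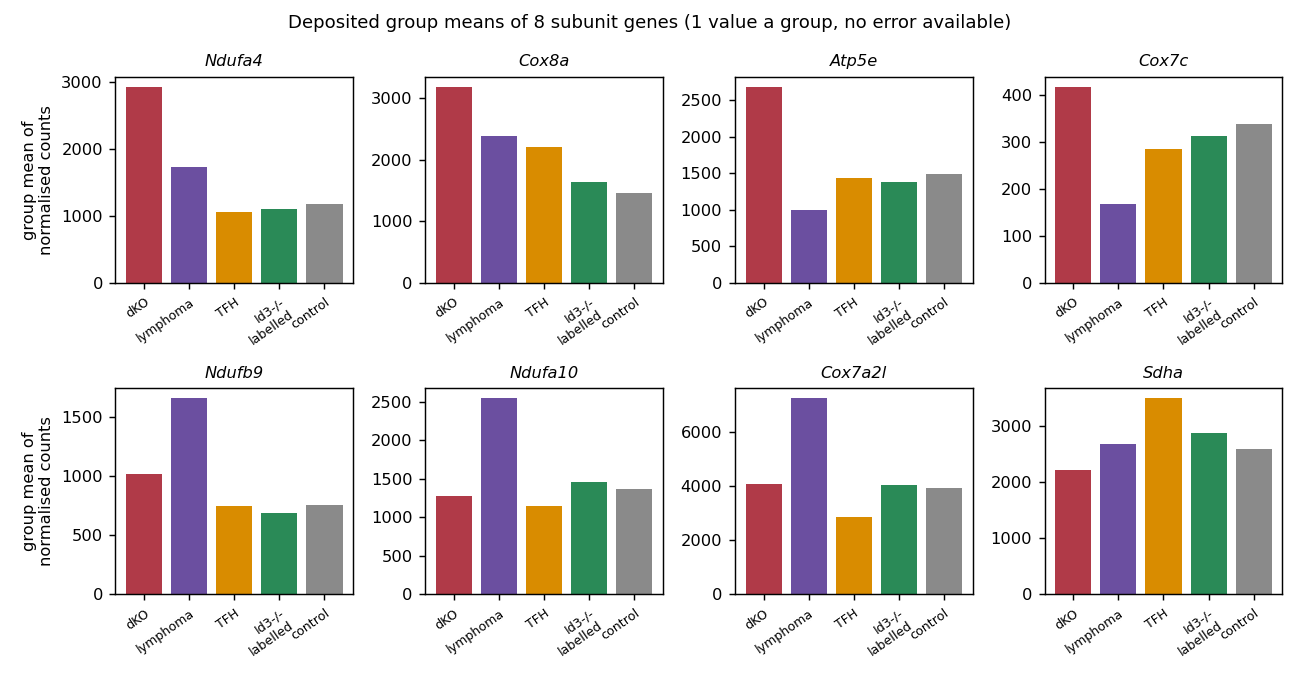
Deposited group mean of normalised counts (vertical axis, from 0) of 8 subunit genes in dKO CD4SP cells, lymphomas, TFH cells, Id3-/--labelled cells and control CD4SP cells; each bar is 1 mean and no error can be given. Ndufa4 and Atp5e are highest in dKO (2927 and 2685), Ndufb9, Ndufa10 and Cox7a2l in lymphomas (1658, 2545 and 7239.8), and Sdha in TFH cells (3501).

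The lowest complex I ratios in the remaining groups fell on a few genes. Ndufs5, an intermembrane-space subunit, averaged 660.2 in dKO CD4SP cells, 539 in lymphomas, 319 in TFH cells, 257 in Id3-/--labelled cells and 459.7 in control CD4SP cells, which gave -0.84 in Id3-/--labelled cells and -0.53 in TFH cells against 0.52 in dKO. Ndufa5 averaged 295 in dKO CD4SP cells, 187 in lymphomas, 163 in TFH cells, 164 in Id3-/--labelled cells and 226 in control CD4SP cells, low in both TFH and Id3-/--labelled cells (-0.46 and -0.46). Ndufc1, a small membrane subunit, averaged 451 in dKO CD4SP cells, 331 in lymphomas, 269 in TFH cells, 241 in Id3-/--labelled cells and 309 in control CD4SP cells, a ratio of -0.36 in Id3-/--labelled cells. Ndufb4c, annotated as a processed pseudogene, can share reads with Ndufb4, so that neither value is certain. Ndufb4c averaged 355 in dKO CD4SP cells, 192 in lymphomas, 154 in TFH cells, 210.0 in Id3-/--labelled cells and 239.8 in control CD4SP cells. Ndufb4, an accessory subunit of the membrane arm, averaged 142 in dKO CD4SP cells, 156 in lymphomas, 126 in TFH cells, 145 in Id3-/--labelled cells and 159.8 in control CD4SP cells. Their dKO ratios had opposite signs (0.56 and -0.17). Ndufa11b and Ndufs6b, also processed pseudogenes, and Ndufa4l2, a hypoxia-linked relative of Ndufa4, did not reach a mean of 10 in any group.

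Complex II, succinate dehydrogenase, is also an enzyme of the TCA cycle and is encoded by the nucleus alone. Its 4 means summed to 6872 in dKO CD4SP cells, 8690.0 in lymphomas, 6965 in TFH cells, 6706 in Id3-/--labelled cells and 6595 in control CD4SP cells, so its dKO sum was 1.04 times that of control and its lymphoma sum 1.32 times. Sdha, the flavoprotein that oxidises succinate, averaged 2219 in dKO CD4SP cells, 2679 in lymphomas, 3501 in TFH cells, 2889 in Id3-/--labelled cells and 2598 in control CD4SP cells. It had the lowest dKO ratio among members with a mean of at least 50 in either group (-0.23) and one of the 3 highest TFH ratios (0.43), unlike its partners. Sdhb, the iron-sulfur subunit, averaged 2358 in dKO CD4SP cells, 3053 in lymphomas, 1629.5 in TFH cells, 1938 in Id3-/--labelled cells and 2063 in control CD4SP cells, and was lowest in TFH cells (-0.34) and highest in lymphomas (0.57). Sdhc, a membrane anchor, averaged 1206 in dKO CD4SP cells, 1518 in lymphomas, 929 in TFH cells, 956 in Id3-/--labelled cells and 1021 in control CD4SP cells, with ratios of 0.24 in dKO and 0.57 in lymphomas. Sdhd, the other anchor, averaged 1089.8 in dKO CD4SP cells, 1439 in lymphomas, 906 in TFH cells, 923 in Id3-/--labelled cells and 913 in control CD4SP cells, with ratios of 0.25 in dKO and 0.66 in lymphomas. All 4 members were higher in lymphomas than in dKO, by 0.27 to 0.40 on the log2 scale, where 51.9% of kept genes were higher. With column sums set equal, the log2 ratio of the complex II sums, lymphomas against dKO, was 0.22, and 0.34 without.

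Complex III, the cytochrome bc1 complex, had all 8 members kept, and all 8 lay above control in dKO, against 51.4% of kept genes. Its sums were 13427 in dKO CD4SP cells, 14676 in lymphomas, 10205 in TFH cells, 10447 in Id3-/--labelled cells and 10746 in control CD4SP cells. Uqcr11, one of the small subunits, averaged 818 in dKO CD4SP cells, 563 in lymphomas, 422 in TFH cells, 404 in Id3-/--labelled cells and 435 in control CD4SP cells, with 0.91 in dKO and 0.37 in lymphomas. Uqcr10, another small one, averaged 1146 in dKO CD4SP cells, 1207 in lymphomas, 849 in TFH cells, 761 in Id3-/--labelled cells and 724 in control CD4SP cells, above control in both deficient groups (0.66 and 0.74). Uqcrc1, a core protein, averaged 2508 in dKO CD4SP cells, 3500.4 in lymphomas, 2264 in TFH cells, 2140.0 in Id3-/--labelled cells and 2199.7 in control CD4SP cells, with ratios of 0.19 in dKO and 0.67 in lymphomas. Its partner Uqcrc2 averaged 2255 in dKO CD4SP cells, 2788 in lymphomas, 2097 in TFH cells, 2152 in Id3-/--labelled cells and 2079.5 in control CD4SP cells, with ratios of 0.12 in dKO and 0.42 in lymphomas. Both core proteins were highest in lymphomas. The Rieske iron-sulfur protein Uqcrfs1 averaged 1496 in dKO CD4SP cells, 1805 in lymphomas, 1059.9 in TFH cells, 1229 in Id3-/--labelled cells and 1391 in control CD4SP cells, low in TFH cells (-0.39). For the remaining small subunits Uqcrb, Uqcrh and Uqcrq the dKO ratios were 0.43, 0.34 and 0.52, and the lymphoma ratios -0.07, 0.30 and 0.43. In this complex too the catalytic and core subunits were nearer control in dKO than the small ones. Their mRNAs were of 1363 to 1896 bases, against 434 to 547 for Uqcr10, Uqcr11, Uqcrb and Uqcrh and 1521 for Uqcrq. The part of mRNA length in this was not tested.

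Complex IV, cytochrome c oxidase, takes its 3 catalytic subunits from mitochondrial DNA and the rest from the nucleus, several of them as pairs of ubiquitous and tissue-restricted isoforms. All 37 genes of mitochondrial DNA are listed at 0 in every group, so the mitochondrially encoded partners could not be compared with the nuclear ones. The 13 kept members summed to 25867 in dKO CD4SP cells, 27407 in lymphomas, 17085 in TFH cells, 18612 in Id3-/--labelled cells and 18888 in control CD4SP cells. Of all complexes this had the largest dKO ratio of sums (1.37), with Ndufa4 counted by its name in complex I. By medians of members its dKO log2 ratio was 0.38, just under the 0.39 of complexes I, III and V, so the order depended on the weighting. Cox8a, a small membrane subunit, averaged 3186 in dKO CD4SP cells, 2381 in lymphomas, 2209.8 in TFH cells, 1643 in Id3-/--labelled cells and 1468 in control CD4SP cells, and was above control in all 4 other groups, with 1.12 in dKO, 0.70 in lymphomas, 0.59 in TFH cells and 0.16 in Id3-/--labelled cells. Cox5a, on the matrix side, averaged 2389 in dKO CD4SP cells, 2104 in lymphomas, 1156 in TFH cells, 1332 in Id3-/--labelled cells and 1403 in control CD4SP cells, with 0.77 in dKO. Cox7a2, the ubiquitous partner of the muscle form Cox7a1, averaged 1955 in dKO CD4SP cells, 1877 in lymphomas, 957 in TFH cells, 1175 in Id3-/--labelled cells and 1241 in control CD4SP cells, with ratios of 0.65 in dKO and 0.60 in lymphomas. Cox6b1, the ubiquitous partner of Cox6b2, averaged 1424 in dKO CD4SP cells, 1043 in lymphomas, 911 in TFH cells, 854 in Id3-/--labelled cells and 936 in control CD4SP cells, with ratios of 0.61 in dKO and 0.16 in lymphomas. Both were past 1.5-fold higher in dKO than in control. Cox4i1, with 4945 normalised counts per kb of mRNA the highest complex IV gene per length in control CD4SP cells, averaged 4866 in dKO CD4SP cells, 4721 in lymphomas, 3281 in TFH cells, 3875 in Id3-/--labelled cells and 3783 in control CD4SP cells and differed less (0.36 in dKO and 0.32 in lymphomas). Cox5b, Cox6a1, Cox6c and Cox7b lay between 0.28 (Cox6c) and 0.45 (Cox5b) in dKO and between 0.32 (Cox6a1) and 0.55 (Cox5b) in lymphomas.

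In lymphomas 2 complex IV genes lay at opposite ends. Cox7a2l averaged 4086 in dKO CD4SP cells, 7239.8 in lymphomas, 2844 in TFH cells, 4033 in Id3-/--labelled cells and 3906 in control CD4SP cells. Its log2 ratio was 0.89 in lymphomas, 0.07 in dKO and -0.46 in TFH cells. Per length it stood to its relative Cox7a2 as 1.28 to 1 in dKO and 2.36 to 1 in lymphomas, against 1.93 to 1 in control CD4SP cells. Cox7c, a small membrane subunit, averaged 418 in dKO CD4SP cells, 168 in lymphomas, 286 in TFH cells, 314 in Id3-/--labelled cells and 338 in control CD4SP cells, the lowest lymphoma ratio among members with a mean of at least 50 (-1.0).

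The tissue-restricted isoforms were near the lower limit of the table. Cox4i2, the lung form of Cox4, averaged 0.568 in dKO CD4SP cells, 0.133 in lymphomas, 1.73 in TFH cells, 4.32 in Id3-/--labelled cells and 10.3 in control CD4SP cells, and was kept only through its control mean. Cox6b2, the testis form, averaged 16.7 in dKO CD4SP cells, 16.4 in lymphomas, 6.05 in TFH cells, 21.8 in Id3-/--labelled cells and 32.9 in control CD4SP cells, highest in control CD4SP cells. Since Cox4i2 passed the minimum through control alone, its lower ratios were set by the filter. It and Cox6b2 are the 2 members counted as lower past 1.5-fold in dKO, and without the tissue-restricted isoforms that count was 0. Cox6a2, Cox7a1 and Cox8b (muscle and heart forms), Cox7b2 and Cox8c (testis forms) and Cox6c2, a processed pseudogene, did not reach a mean of 10 in any group, and the highest mean among all 10 members under that limit was 7.88, for Cox7a1 in control CD4SP cells.

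Complex V, the ATP synthase, had the largest summed means and, by a small margin over complex IV (1.45), the largest lymphoma ratio of sums, while by medians of members complex II was largest in lymphomas (0.57, and 0.48 for complex V). Its 16 kept members summed to 53535 in dKO CD4SP cells, 65141 in lymphomas, 40511 in TFH cells, 46072 in Id3-/--labelled cells and 44653 in control CD4SP cells, or 1.2 and 1.46 times control in dKO and lymphomas. Atp5b, the catalytic beta subunit, averaged 11661 in dKO CD4SP cells, 16885 in lymphomas, 9207 in TFH cells, 12143 in Id3-/--labelled cells and 10851 in control CD4SP cells, which was 0.10 in dKO and 0.64 in lymphomas. Atp5a1, the alpha subunit, averaged 10671 in dKO CD4SP cells, 13288 in lymphomas, 8867 in TFH cells, 9905 in Id3-/--labelled cells and 9236 in control CD4SP cells, with ratios of 0.21 in dKO and 0.52 in lymphomas. Atp5c1, the gamma subunit or rotor shaft, averaged 3560.3 in dKO CD4SP cells, 5522 in lymphomas, 3132 in TFH cells, 3425 in Id3-/--labelled cells and 3392 in control CD4SP cells, with ratios of 0.07 in dKO and 0.70 in lymphomas. Atp5d, the delta subunit, averaged 3612 in dKO CD4SP cells, 3757 in lymphomas, 2764 in TFH cells, 2639 in Id3-/--labelled cells and 2682 in control CD4SP cells, with ratios of 0.43 in dKO and 0.49 in lymphomas. These 4 genes of the catalytic head and rotor were highest in lymphomas. Atp5e, the small epsilon subunit of the same rotor, went the other way, with means of 2685 in dKO CD4SP cells, 999 in lymphomas, 1430.2 in TFH cells, 1381 in Id3-/--labelled cells and 1487 in control CD4SP cells. Its log2 ratio was 0.85 in dKO and -0.57 in lymphomas against control, and -1.43 in lymphomas against dKO, the lowest of all members there. Per length, Atp5e stood to Atp5b as 1.05 to 1 in dKO CD4SP cells and 0.269 to 1 in lymphomas. In control CD4SP cells it stood as 0.624 to 1. These are ratios of mRNA, not of protein, and the mRNA of Atp5e is far shorter (421 bases, against 1916 for Atp5b).

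The peripheral stalk and the membrane part were mixed. Atp5o, the subunit that ties the stalk to the catalytic head, averaged 2300.2 in dKO CD4SP cells, 3489.6 in lymphomas, 1561 in TFH cells, 1861 in Id3-/--labelled cells and 1885 in control CD4SP cells, with 0.89 in lymphomas. The c-ring is encoded by 3 genes for 1 mature protein, of which Atp5g3 averaged 4420.0 in dKO CD4SP cells, 6764 in lymphomas, 3331 in TFH cells, 3817 in Id3-/--labelled cells and 3943 in control CD4SP cells. Atp5g1, another of the 3, averaged 1880.3 in dKO CD4SP cells, 2261 in lymphomas, 1237 in TFH cells, 1498 in Id3-/--labelled cells and 1424 in control CD4SP cells. Both were highest in lymphomas (0.78 and 0.67), while Atp5g2 is listed at 0 in 4 groups and at 2.89 in dKO CD4SP cells. The stalk subunits Atp5h, Atp5j and Atp5f1 had dKO ratios of 0.52, 0.38 and 0.07, and lymphoma ratios of 0.54, 0.30 and 0.48. The small membrane subunits Atp5j2 (f), Atp5k (e), Atp5mpl and Atp5l (g) had dKO ratios of 0.59, 0.64, 0.63 and 0.37, and lymphoma ratios of -0.37, -0.04, 0.31 and 0.16. Atp5s, a coupling factor rather than a fixed subunit, averaged 71.2 in dKO CD4SP cells, 46.4 in lymphomas, 79.6 in TFH cells, 48.4 in Id3-/--labelled cells and 51.5 in control CD4SP cells, the highest TFH ratio among members with a mean of at least 50 (0.62).

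Across the complexes, shorter transcripts had the higher dKO ratios. Lengths are those of the principal transcript in GENCODE M21, which for Atp5g1 and Ndufb2 is 4715 and 4371 bases, far longer than the other small subunits. The 38 kept members with an mRNA under 800 bases had a median dKO ratio of 0.51 and the 40 longer ones 0.25. In lymphomas the order was the other way, with 0.27 for the shorter and 0.47 for the longer members. Of the 13 members past 1.5-fold in dKO, 12 had an mRNA under 800 bases, and of the 18 in lymphomas, 7 did. Over the 77 kept protein-coding members, Spearman's rho between length and log2 ratio was -0.55 in dKO and 0.26 in lymphomas against control, and 0.55 in lymphomas against dKO. These are descriptions across genes, which share libraries and are not replicates. Over the 9034 kept coding genes with a mean of at least 50 in every group, rho was -0.30 in dKO and -0.18 in lymphomas against control, and 0.09 in lymphomas against dKO.

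Short transcripts were also higher in dKO over all kept protein-coding genes, a set that includes the coding members. Protein-coding genes with an mRNA under 600 bases (181 kept genes) had a median dKO ratio of 0.58, and the 21 members of that size 0.43. From 600 to under 800 bases the medians were 0.52 for members and 0.40 for all coding genes, and from 1000 to under 1500 bases 0.20 and 0.20. With each ratio centred on coding genes of like length, the members' dKO median was 0.04, against 0.37 without centring. This centring was chosen after seeing the data. The dKO shift was thus about as large as the median of all coding genes of the same size, which include the coding members themselves. In lymphomas the members were at or below coding genes of like length under 600 bases (0.16 and 0.21) and above them from 1500 to under 2500 bases (0.52 and 0.18), and the centred median was 0.13. The part of library preparation in this pattern was not tested, and no label gives the batches of the libraries.

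**Figure D3:**
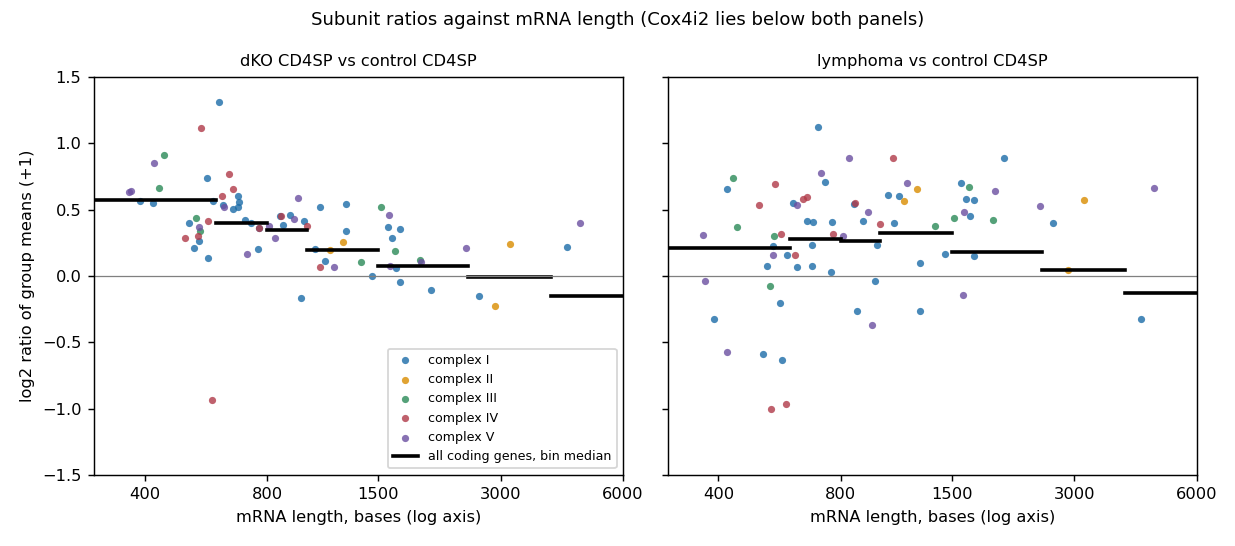
Log2 ratio of group means (vertical axis) against mRNA length in bases (log axis) for the kept subunit genes, coloured by complex, in dKO CD4SP cells against control and in lymphomas against control; black lines are medians of all kept protein-coding genes in 7 length bins, and Cox4i2 lies below both panels. In dKO the steps descend to the right, and the members under 600 bases have a median of 0.43 and those of 1000 to under 1500 bases of 0.20, while in lymphomas the members under 600 bases scatter around a median of 0.16 and those of 1500 to under 2500 bases around 0.52.

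Genes that work beside the subunits were read for comparison, all against control. Past 1.5-fold, 23.6% of all kept genes were higher and 19% lower in dKO, and 28.2% and 26.5% in lymphomas. The 16 other electron transfer genes, which carry electrons or make ubiquinone, had medians of 0.17 in dKO and 0.35 in lymphomas, with 2 and 5 past 1.5-fold higher and 0 lower in both. Cycs, cytochrome c, averaged 315 in dKO CD4SP cells, 242 in lymphomas, 156 in TFH cells, 182 in Id3-/--labelled cells and 182 in control CD4SP cells, highest in dKO. Cyc1, the cytochrome c1 of complex III, averaged 1911 in dKO CD4SP cells, 3086 in lymphomas, 1677 in TFH cells, 1842 in Id3-/--labelled cells and 1765 in control CD4SP cells, highest in lymphomas. Etfb, which feeds electrons from fatty acid oxidation into the chain, averaged 863 in dKO CD4SP cells, 1293 in lymphomas, 799.5 in TFH cells, 523 in Id3-/--labelled cells and 459.7 in control CD4SP cells, above control in every other group (0.91 in dKO and 1.49 in lymphomas).

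Assembly factors of the complexes differed among themselves. Those of complex I (13 genes) had medians of 0.14 in dKO and 0.20 in lymphomas, those of complex IV (19 genes) 0.26 and 0.44, and those of complexes II, III and V (13 genes) -0.08 and -0.09. Cox17, a copper chaperone for complex IV, averaged 886 in dKO CD4SP cells, 575 in lymphomas, 973 in TFH cells, 463 in Id3-/--labelled cells and 442 in control CD4SP cells, higher in dKO and TFH cells (1.00 and 1.14). Sco2, which passes copper on to the enzyme, averaged 279.9 in dKO CD4SP cells, 268 in lymphomas, 66.9 in TFH cells, 158 in Id3-/--labelled cells and 142 in control CD4SP cells, higher in both deficient groups (0.98 and 0.92) and lower in TFH cells (-1.07). Nubpl, which loads iron-sulfur clusters onto complex I, averaged 57.4 in dKO CD4SP cells, 109 in lymphomas, 75.2 in TFH cells, 107 in Id3-/--labelled cells and 103 in control CD4SP cells, lowest in dKO.

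The regulators of mitochondrial transcription and biogenesis had medians slightly below control in both deficient groups. They are long, with a median mRNA length of 3488 bases. Kept coding genes of 2500 to under 4000 bases had medians of -0.01 in dKO and 0.04 in lymphomas. Those of 4000 bases or more had -0.15 and -0.13. Of 15 kept genes, 0 were higher and 1 lower past 1.5-fold in dKO (23.6% and 19% of all kept genes), with a median of -0.13. In lymphomas 1 was higher and 2 lower (28.2% and 26.5% of all kept genes), with a median of -0.15. Nrf1, the activator whose letters were searched above, averaged 740.1 in dKO CD4SP cells, 794 in lymphomas, 874 in TFH cells, 908 in Id3-/--labelled cells and 990.5 in control CD4SP cells. Gabpa, the ETS factor of the same program, averaged 929.5 in dKO CD4SP cells, 1103 in lymphomas, 1079.6 in TFH cells, 1209.8 in Id3-/--labelled cells and 1165 in control CD4SP cells. Of the 5 groups both had their lowest mean in dKO. Polg, the mitochondrial DNA polymerase, averaged 1306 in dKO CD4SP cells, 1036 in lymphomas, 1756 in TFH cells, 2208 in Id3-/--labelled cells and 2210.1 in control CD4SP cells, with -0.76 in dKO and -1.09 in lymphomas. Tfb2m, a mitochondrial transcription factor, averaged 435 in dKO CD4SP cells, 766 in lymphomas, 355 in TFH cells, 351 in Id3-/--labelled cells and 349.7 in control CD4SP cells, with 1.13 in lymphomas. Ppargc1a, the PGC-1alpha coactivator, stayed under 10 in all 5 groups.

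Genes of mitochondrial and cytosolic protein production were read in the same way. The 79 kept mitochondrial ribosomal proteins had medians of 0.30 in dKO, 0.44 in lymphomas, -0.15 in TFH cells and -0.02 in Id3-/--labelled cells. The 82 kept cytosolic ribosomal proteins had 0.72, 0.72, -0.31 and 0.25 in the same 4 groups, and are short mRNAs as well, with a median of 834 bases. The 21 import genes, which bring nuclear-encoded subunits into the organelle, had 0.39 in dKO, where 7 were past 1.5-fold higher, and 0.64 in lymphomas, where 13 were. Of all kept genes, 23.6% in dKO and 28.2% in lymphomas were past 1.5-fold higher. Timm23, the channel of the inner membrane, averaged 2728 in dKO CD4SP cells, 1474 in lymphomas, 851 in TFH cells, 977 in Id3-/--labelled cells and 874 in control CD4SP cells, the highest dKO ratio of that list (1.64). Hspd1, the matrix chaperone Hsp60, averaged 5288 in dKO CD4SP cells, 7996 in lymphomas, 2110.5 in TFH cells, 3760.2 in Id3-/--labelled cells and 2705 in control CD4SP cells, the highest lymphoma ratio of that list (1.56).

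The TCA cycle enzymes, which supply NADH and succinate, were near control in dKO and above it in lymphomas. Over 18 genes the medians were 0.06 in dKO and 0.48 in lymphomas, with 2 and 7 past 1.5-fold higher and 0 and 1 lower. Of all kept genes, 23.6% and 28.2% were past 1.5-fold higher and 19% and 26.5% lower in these 2 comparisons. Pcx, pyruvate carboxylase, which refills the cycle, averaged 177 in dKO CD4SP cells, 193 in lymphomas, 121 in TFH cells, 56.6 in Id3-/--labelled cells and 38.7 in control CD4SP cells, the highest ratio of that list in both (2.17 in dKO and 2.29 in lymphomas). Fh1, fumarate hydratase, averaged 852 in dKO CD4SP cells, 1365 in lymphomas, 812 in TFH cells, 758 in Id3-/--labelled cells and 625 in control CD4SP cells, with 1.13 in lymphomas. Idh2, the NADP-dependent isocitrate dehydrogenase of mitochondria, averaged 783 in dKO CD4SP cells, 688 in lymphomas, 792 in TFH cells, 944 in Id3-/--labelled cells and 1049 in control CD4SP cells, the lowest ratio of that list in both deficient groups (-0.42 in dKO and -0.61 in lymphomas). Glycolysis genes, the other main source of ATP, had medians of 0.50 in dKO, with 8 of 18 higher and 3 lower past 1.5-fold, and 0.98 in lymphomas, with 12 higher and 3 lower. Their medians were thus above those of the subunits in both groups. Tpi1, triosephosphate isomerase, averaged 2238 in dKO CD4SP cells, 3948 in lymphomas, 1367 in TFH cells, 1268 in Id3-/--labelled cells and 652 in control CD4SP cells, the highest dKO ratio of that list (1.78). Ldhb, the lactate dehydrogenase form of oxidative tissues, averaged 431 in dKO CD4SP cells, 1123 in lymphomas, 589 in TFH cells, 1209 in Id3-/--labelled cells and 1876 in control CD4SP cells, the lowest dKO ratio of that list (-2.12).

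**Figure D4:**
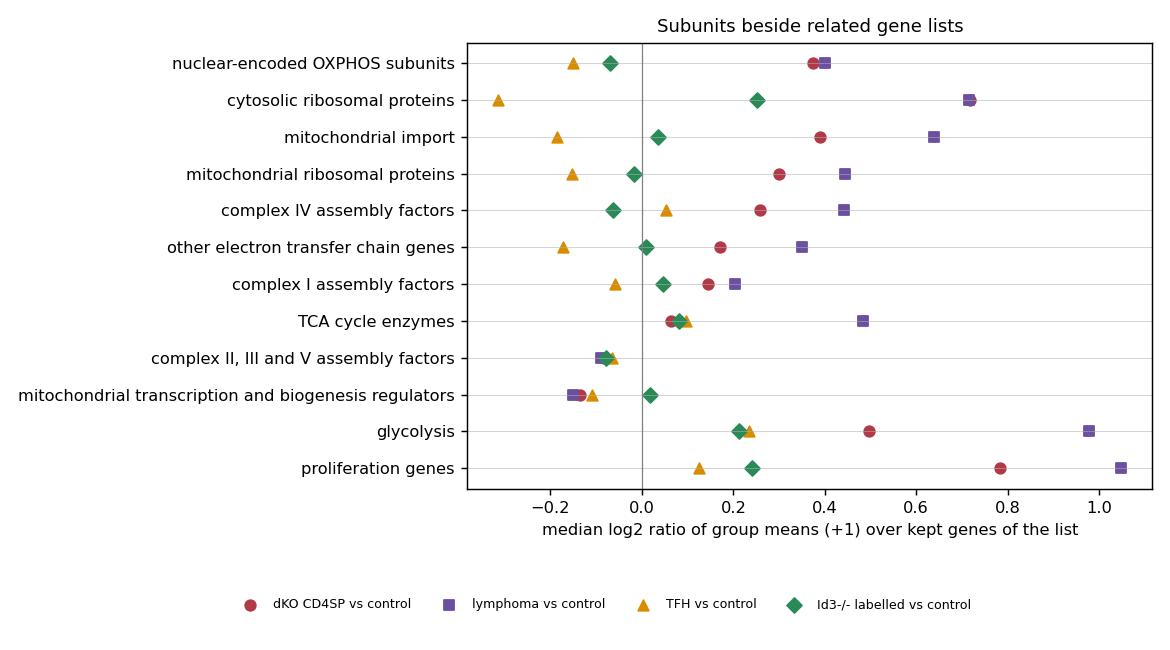
Median log2 ratio of group means against control (horizontal axis) of the nuclear-encoded subunits and of 11 related gene lists (vertical axis), for dKO CD4SP cells, lymphomas, TFH cells and Id3-/--labelled cells; each symbol is a median over the kept genes of a list and carries no error. The subunits lie at 0.37 in dKO and 0.40 in lymphomas, between the regulators (-0.13 and -0.15) and the cytosolic ribosomal proteins (0.72 and 0.72). The proliferation genes lie highest in both (0.78 and 1.05). The lists differ in median mRNA length, with 3488 bases for the regulators and 834 for the cytosolic ribosomal proteins.

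Proliferation genes and markers of other cell types were read beside the subunit values. Of all kept genes, 23.6% were past 1.5-fold higher in dKO, 28.2% in lymphomas and 9.94% in Id3-/--labelled cells than in control. The shares lower past 1.5-fold were 19%, 26.5% and 10.4%. Past 1.2-fold, 36.8% were higher in dKO and 39.6% in lymphomas. All 15 proliferation genes were past 1.2-fold higher in dKO and in lymphomas, with medians of 0.78 and 1.05, and their summed means were 32520.4 in dKO CD4SP cells, 41225 in lymphomas, 21159.6 in TFH cells, 22701 in Id3-/--labelled cells and 18869 in control CD4SP cells. In lymphomas all 8 kept myeloid markers of 10 were past 1.5-fold higher than in control, in dKO 3 were higher and 3 lower, and their sums were 496 in dKO CD4SP cells, 957 in lymphomas, 192 in TFH cells, 215 in Id3-/--labelled cells and 149 in control CD4SP cells. Itgam (274) and S100a9 (230.0) were the highest of them in lymphomas, while Cd14 and Adgre1 stayed under 10 in all groups. All 4 kept erythroid markers of 7, the globin genes, were past 1.5-fold higher in lymphomas and in Id3-/--labelled cells and lower in dKO, with sums of 25.4 in dKO CD4SP cells, 407 in lymphomas, 30.6 in TFH cells, 218 in Id3-/--labelled cells and 50.6 in control CD4SP cells. The NK and gamma-delta list summed to 6489 in dKO and 22275 in lymphomas, against 354 in control CD4SP cells, most of it Gzma (5809, 21911 and 25.2). In TFH cells, which were sorted on CXCR5, the B cell list summed to 1962, against 122 in control CD4SP cells, with Cd22 at 1421. In lymphomas 5 of 8 B cell markers were past 1.5-fold higher and 1 lower than in control, with a sum of 1372 in lymphomas. The DP thymocyte list summed to 509 in dKO CD4SP cells, 2544 in lymphomas, 48.7 in TFH cells, 423 in Id3-/--labelled cells and 518 in control CD4SP cells, and Cd8a, one of its genes, averaged 1388 in lymphomas, 2 of which were sorted as CD8+ cells, and 128 in control CD4SP cells. The 8 T cell markers summed to 62915 in dKO CD4SP cells, 43025 in lymphomas, 67378 in TFH cells, 61167 in Id3-/--labelled cells and 70706 in control CD4SP cells, with 0 higher and 3 lower past 1.5-fold in dKO and 1 higher and 3 lower in lymphomas. The CD3 genes Cd3d, Cd3e and Cd3g had ratios of 0.36, -0.14 and 0.28 in dKO and of 0.06, -0.99 and -0.29 in lymphomas. Cd4, Cd8a and Cd8b1, the 3 lower in dKO, had -1.20, -2.67 and -1.47 there and -1.87, 3.43 and -0.35 in lymphomas. The part of cycling cells or of other cell types in the subunit values was not tested.

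The genes outside the rule whose pattern was most like the members' were found by the distance of their 4 log2 ratios against control from the members' medians, over 9318 genes with a mean of at least 50 in every group. Among the 10 nearest were Zfp235, Imp3, Slc30a6, Mrpl55, Ostc, Mkrn2, Rpf1, Glrx5 and Abhd17a. Mrpl55, a mitochondrial ribosomal protein, averaged 227 in dKO CD4SP cells, 239 in lymphomas, 156 in TFH cells, 159 in Id3-/--labelled cells and 175 in control CD4SP cells. Glrx5, a mitochondrial protein of iron-sulfur cluster assembly, averaged 928 in dKO CD4SP cells, 989 in lymphomas, 718 in TFH cells, 736 in Id3-/--labelled cells and 753 in control CD4SP cells. Only group means of 5 groups enter this likeness.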

How the data were processed

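Strand-specific poly(A) RNA-seq libraries of 20 samples in 5 groups were sequenced on an Illumina HiSeq. The authors aligned reads to mm10 with OSA in Array Studio, estimated counts with RSEM and normalised them with DESeq; no versions are given. The deposited signal values are the authors' means of these normalised counts, 1 column per group and 0 per sample. The authors' fold changes, p-values and false discovery rates for 4 comparisons were not used.

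Genes with at least 1 group mean of 10 were kept, 1 was added and log2 ratios were taken in Python (pandas 2.3.3), with no statistical test. A difference past 1.5-fold was counted, with 1.2-fold and 2-fold beside it. Alternatives were other filters, added counts, scalings, folds and gene sets. The functions that count and centre ratios were run on simulated means with planted changes, which says nothing about the spread between libraries. Symbols (37607 of 39179 genes), biotypes and lengths came from GENCODE M21, promoters from RefSeq. Named were the members, the 3 at each end of a comparison by ratio (mean of 50 in either group) first, some of the 3 genes at each end of related lists, and the nearest genes (a few items are not reported here); Gabpa, Ppargc1a and the cell markers were named beside this rule. Members and lists were chosen with earlier results of these data known.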

Additional observations from a re-analysis of the deposited data

How the results depend on the processing

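The values used here are 1 mean per group, so no statistical test was run and no library was left out. No paired analysis was possible because the columns carry no replicate numbers. A mean that rests on 1 library cannot be told from one that all libraries share. Depth is unknown. A value was taken as moved where it shifted by over 0.1 on the log2 scale or a count by over 1.5 times, and the causes were not tested beyond what each setting changes by its construction.

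With all genes and no filter, members lower past 1.5-fold numbered 4 in dKO, 5 in TFH and 4 in Id3-/--labelled cells against control. With a mean of at least 100 in any group, 0 were lower in dKO, 3 in lymphomas, 1 in TFH (and 1 higher) and 1 in Id3-/--labelled cells. Without the tissue-restricted isoforms, 0 were lower in dKO, 3 in lymphomas, 1 in TFH and 1 in Id3-/--labelled cells. With 10 added in place of 1, 1 was higher in TFH and 1 lower in Id3-/--labelled cells. At 2-fold, 2 were higher and 1 lower in dKO, 1 and 2 in lymphomas, 0 and 2 in lymphomas against dKO, 0 higher in TFH and 1 lower in Id3-/--labelled cells. At 1.2-fold, 51 were higher in dKO, 48 higher and 11 lower in lymphomas, 24 and 24 in lymphomas against dKO, and 20 lower in TFH and 9 in Id3-/--labelled cells.

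With column sums set equal, 6 members were higher in dKO and 4 in lymphomas, where the median was 0.20, and lymphomas against dKO gave 3 higher and a median of -0.15. The log2 ratios of complex sums, I to V, then were 0.16, 0.19, 0.25, 0.33 and 0.34 in lymphomas against control and -0.13, 0.22, 0.012, -0.033 and 0.17 against dKO. With medians of members in place of sums, complex II gave 0.22 and V 0.39 in dKO, complex I 0.24, II 0.57 and IV 0.40 in lymphomas, II -0.074 in TFH, and III 0.022, IV -0.059 and V 0.036 in lymphomas against dKO. Of 50 such values, 42 kept the sign of the sums. Centring on coding genes of like mRNA length, chosen after seeing the data like the 1.2-fold limit, gave dKO a median of 0.038 with 1 member higher, lymphomas 0.13 with 4 higher and 8 lower, and lymphomas against dKO 0.13, opposite in sign to the -0.035 without it.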
